A study of Mus musculus with 16 samples.

Results

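The imprinted tandem small nucleolar RNAs (snoRNAs) beside Ube3a were followed through small RNA libraries of the mouse prefrontal cortex. Members were chosen by name and from a list. All table rows whose symbol starts with Snord64, Snord107, Snord115 or Snord116 were taken, together with 21 listed Gm symbols that had been picked with the levels in these same libraries already known. This gave 40 members of 18488 features, namely 17 rows named Snord116l1 to Snord116l17, Snord64, Snord107 and the 21 Gm symbols. No row was named Snord115 (0 rows), but all 21 Gm symbols were positioned among the Snord115 copies in the gene annotation. All 40 members passed the filter on low values, a mean of 5 or more, and they held 29 distinct rows of values, because near-identical copies are credited with the same reads.

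The libraries came from 8 PS19 mice, labelled PS19+/-, and 8 wild-type (WT) mice. PS19 mice carry a mutant human tau (MAPT) transgene driven by the mouse prion promoter on a background of C57BL/6 and C3H, were used as heterozygotes, and develop tau pathology in the cortex. WT mice were littermates bred in the same facility. Both groups were of the same age with equal numbers of males and females, the sex of each mouse is not given in the labels, and all were perfused before the cortex was taken. Values are read counts divided by 1 size factor per library, called normalized counts here, and a library is named by its genotype and its replicate number, as in PS19-2. In bulk tissue, fewer cells of a type and less RNA per cell cannot be told apart.

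These snoRNAs belong to the box C/D class, which guides ribose methylation of other RNAs through an antisense element and binds its partner proteins through the C and D boxes. The Snord115 and Snord116 copies lie in introns of one long noncoding host transcript, Snhg14, that runs from the Snrpn promoter towards and across Ube3a, and the chromosome inherited from the father is the one that is transcribed. Expression of the run is strong in neurons. Snord115 is known for an element complementary to the mRNA of the serotonin receptor gene Htr2c, and loss of the SNORD116 copies in humans is linked to Prader-Willi syndrome.

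The run of the mouse genome (GRCm38, chromosome 7, minus strand) held 210 snoRNA genes of the table. Of these, 137 were Snord115 copies, 71 were Snord116 copies, and the other two were Snord64 and Snord107. The 137 Snord115 copies had 57 distinct sequences in GENCODE vM21, and the most frequent of these was carried by 33 copies. It is shown because the members differ from it by single bases. Its capitals mark the longest stretch, 18 bases at positions 53 to 70 counted from 1 at the 5′ end, that is perfectly complementary to an Htr2c transcript (found in 2 of 7 annotated Htr2c transcripts).
Most frequent Snord115 copy: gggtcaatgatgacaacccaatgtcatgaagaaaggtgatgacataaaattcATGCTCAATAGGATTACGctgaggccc

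None of the 21 Gm members had this most frequent sequence (0 of 21). The copies whose levels differed most between libraries are shown next, with capitals at the bases that differ from the most frequent copy. Gm24310 (chr7:59518411-59518489) carried C19A, G36T and G70T. Gm25087 (chr7:59582063-59582140) had the same 78-base sequence as Gm26467 (chr7:59574579-59574656), 1 base shorter than the most frequent copy. Gm26466 (chr7:59407197-59407275) carried A34G, G35A, C56G, G70A, G76A and C78A, and its neighbour Gm22348 (chr7:59405330-59405408) carried G9A, A34G, G35A and G76A. Gm25229 (chr7:59414091-59414169) differed only by A34G. Gm26096 (chr7:59373844-59373922) and Gm26499 (chr7:59377582-59377660) shared 1 sequence with A26T and A33T.
Gm24310: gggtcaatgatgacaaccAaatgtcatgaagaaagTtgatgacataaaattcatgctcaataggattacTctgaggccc
Gm25087 and Gm26467: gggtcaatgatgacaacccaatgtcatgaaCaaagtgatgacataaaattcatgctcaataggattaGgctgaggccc
Gm26466: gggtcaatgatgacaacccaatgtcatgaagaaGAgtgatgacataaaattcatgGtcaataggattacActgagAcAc
Gm22348: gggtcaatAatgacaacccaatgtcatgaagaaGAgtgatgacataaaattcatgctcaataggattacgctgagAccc
Gm25229: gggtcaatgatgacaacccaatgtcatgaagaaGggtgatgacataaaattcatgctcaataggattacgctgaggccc
Gm26096 and Gm26499: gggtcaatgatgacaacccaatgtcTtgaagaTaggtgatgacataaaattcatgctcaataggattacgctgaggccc

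The base at position 34 was G in 4 of the 130 Snord115 copies of 79 bases, and 3 of these were the members Gm26466, Gm22348 and Gm25229. The 18-base Htr2c element was intact in 13 of the 21 Gm members, among them Gm22348, Gm25229, Gm26096 and Gm26499, and in 105 of all 137 copies. It was changed in Gm24310, Gm25087, Gm26467 and Gm26466, and also in Gm25499, Gm22496, Gm25648 and Gm24969. The letters of the C box, TGATGA, searched on the transcript strand within the first 20 bases, were found in 33 of the 40 members (82.5%) and in 38.1% of the 827 snoRNA rows of the table. Those of the D box, CTGA, searched within the last 20 bases, were found in all 40 members and in 52.6% of the 827 rows. Gm22348 was among the 7 members without the C box letters in that window.

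The most marked pattern was a switch between separate levels in 4 PS19 libraries. Gm24310 had 297, 3.25, 234, 1.07, 214, 2.85, 207 and 2.93 normalized counts in PS19-1 to PS19-8, and 242, 207, 209, 217, 221, 268, 256 and 263 in WT-1 to WT-8. The low values rest on 3, 1, 3 and 4 reads in PS19-2, PS19-4, PS19-6 and PS19-8, against 162 to 348 reads in the other PS19 libraries. The WT libraries lay close together, PS19-1, PS19-3, PS19-5 and PS19-7 lay within or near their range, and the other PS19 libraries were close to 0.

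Gm25087, which with Gm26467 is credited with the same reads in every library, showed the same libraries low. Its normalized counts were 1939, 34.6, 1629, 35.2, 1384, 32.3, 1148 and 79 in PS19-1 to PS19-8, and 2306, 1712, 1814, 1598, 1597, 1988, 1492 and 1567 in WT-1 to WT-8. PS19-8 was higher than the other low libraries, and no library lay between 79 and 1148.

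Gm26466 was high in exactly the libraries in which Gm24310 and Gm25087 were low. It reached 1401, 947, 1395 and 3078 in PS19-2, PS19-4, PS19-6 and PS19-8, and was 74.2, 34.7, 54.1 and 47.6 in PS19-1, PS19-3, PS19-5 and PS19-7. The WT libraries had 80.7, 55.2, 66.7, 48.3, 46.3, 69, 49.5 and 81.2, a range that holds PS19-1, PS19-5 and PS19-7.

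Its neighbour Gm22348, which starts less than 2 kb away, behaved alike. Normalized counts were 282, 2733, 165, 2994, 106, 2513, 133 and 3112 in PS19-1 to PS19-8, and 219, 232, 260.0, 136, 187, 140.1, 124 and 212 in WT-1 to WT-8. For Gm25229, the values were 131, 1416, 92.6, 1615, 119, 1622, 99.4 and 2426 in PS19, and 173, 165, 157, 103, 122, 126, 117 and 123 in WT. In these copies as well, the odd-numbered PS19 libraries lay near or within the WT range.

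Gm26096 had a higher level in WT and so a smaller step. Its normalized counts were 355, 1589, 233, 1617, 330.3, 1598, 217 and 2501 in PS19-1 to PS19-8, and 411, 303, 309.7, 220.2, 271, 308, 229 and 315 in WT-1 to WT-8. Gm26499, which has the same sequence, differed from it by a few reads at most. The plot of single copies by library shows both directions of the switch.

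**Figure D1:**
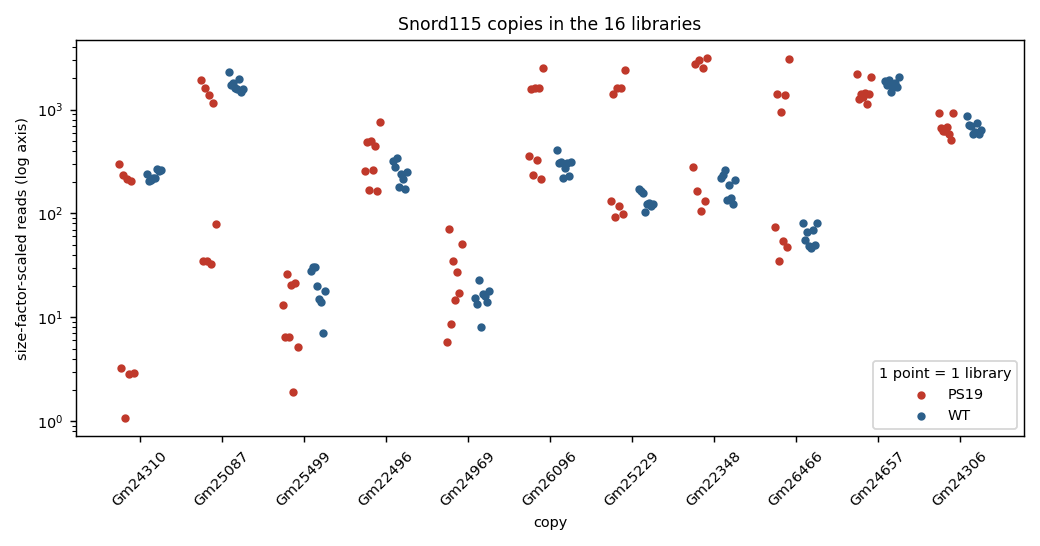
Normalized counts (size-factor-scaled reads, log axis) of 11 Snord115 copies, 1 point per library, with 8 PS19 libraries in red and 8 WT libraries in blue. For Gm24310 and Gm25087 4 red points lie far below the blue ones, for Gm26096, Gm25229, Gm22348 and Gm26466 4 red points lie far above them, for Gm24306 the colours overlap, and for Gm24657 6 red points lie below the blue ones and 2 above.

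The other Gm members either followed these libraries in part or did not separate them. Gm22496 (chr7:59347337-59347424, 88 bases) had 489, 500.1, 449.7 and 756 in PS19-2, PS19-4, PS19-6 and PS19-8 and 166 to 340 in the other 12 libraries. Gm24969 (chr7:59360760-59360838) had 70.4, 35.2, 27.5 and 50.5 in the same libraries and 5.82 to 23.1 in the others, at a low depth of 4 to 69 reads in PS19. Gm25499 (chr7:59342226-59342294, 69 bases) was lower there, with 6.5, 6.4, 1.9 and 5.12 against 7.07 to 30.8, on 2 to 7 reads. For Gm25648, PS19-2, PS19-4 and PS19-6 had 9.74, 10.7 and 11.4, but WT-4 was as low at 10.1, so that its libraries overlapped.

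In all, 10 of the 29 distinct member rows had these 4 PS19 libraries outside the range of the other 12, 7 above it and 3 below it. Of the 5725 tested features with distinct values, 0.489% had these libraries outside the range of the other 12, and 14 of those 28 were above it. The remaining 19 member rows overlapped. These libraries were singled out by the values themselves, so no test was made between them and the others. They were not set apart by depth, with 15.8 to 17.96 M recovered reads against 13.2 to 23.1 M in the other 12, and the snoRNA share of their signal ran from 10.3% to 23.5% against 11.1% to 20.7%.

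**Figure D2:**
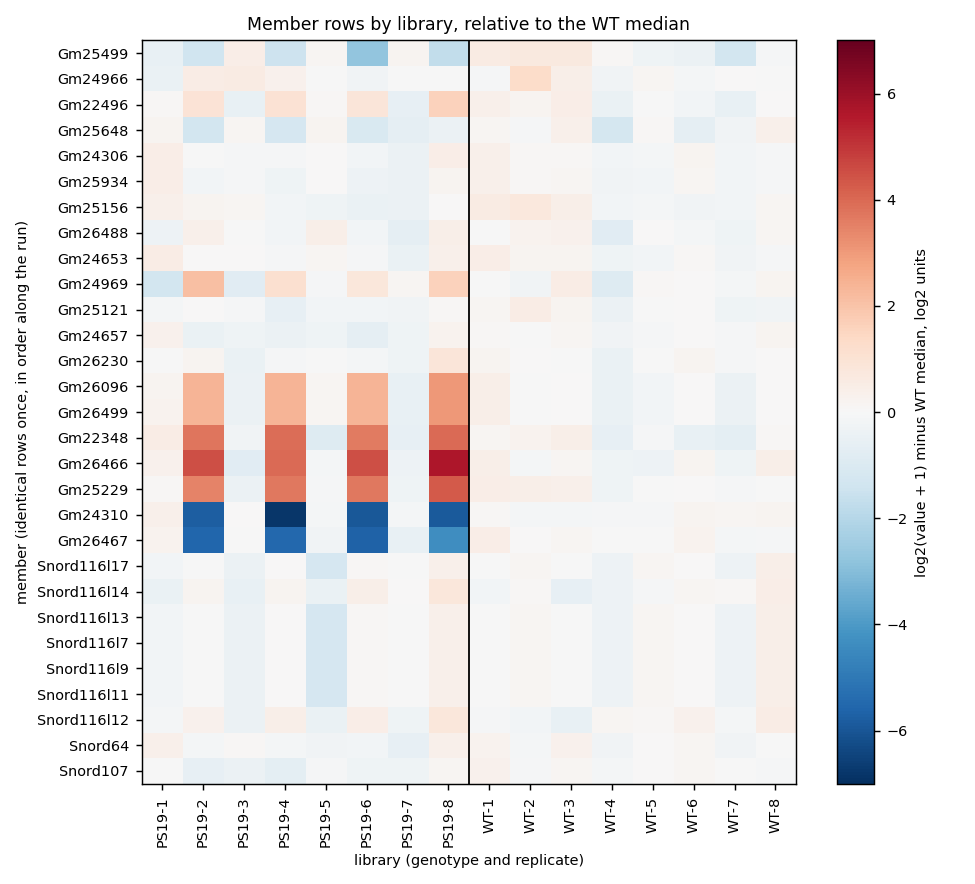
Heat map of log2(value + 1) minus the WT median for the 29 distinct member rows (in order along the run, identical rows once, so Gm26467 also stands for Gm25087) in the 16 libraries. The columns PS19-2, PS19-4, PS19-6 and PS19-8 are red for Gm26466, Gm22348, Gm25229, Gm26096 and Gm26499 and blue for Gm24310 and Gm26467, and the Snord-named rows differ less from the WT median.

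The remaining Gm members varied less. Gm24657, which differs from the most frequent copy by C18A alone, had the highest mean of the Gm members, and had a median of 1408 (1129 to 2209) in PS19 and of 1763 (1480.2 to 2051) in WT. Its PS19 libraries lay on both sides of the WT range, 6 below it and 2 above it. Gm24306 lay between 509 and 931 in PS19 and between 577 and 867 in WT. Gm25934 spanned 496 to 914 in PS19 and 561 to 837 in WT, and Gm24653 spanned 421 to 817 and 474 to 779. In each of the latter 3 copies, 4 or more of the 8 PS19 libraries lay within the WT range.

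Gm26230 spread over 309.6 to 765 in PS19 and 307 to 477 in WT. Gm25156 was between 118 and 212 in PS19 and between 141 and 273 in WT. Less abundant were Gm26488, with 39.9 to 84.5 in PS19 and 36.2 to 76.1 in WT, and Gm25121, with 37.3 to 58.5 and 42.2 to 79.9. Gm24966, the copy with the most substitutions among the members of full length (10 bases), was at 18.9 to 39.1 in PS19 and 22.1 to 65.6 in WT. Here too the groups overlapped.

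The spread between libraries put numbers on this contrast. The SD of log2(value + 1) over the 16 libraries was 2.75 for Gm24310, the highest of all 6024 tested features, 2.38 for Gm25087 and Gm26467, 2.16 for Gm26466, 1.84 for Gm22348, 1.71 for Gm25229 and 1.22 for Gm26096 and Gm26499. Within the 8 WT libraries the same copies had an SD of 0.15 (Gm24310), 0.21 (Gm25087), 0.33 (Gm26466), 0.40 (Gm22348), 0.27 (Gm25229) and 0.28 (Gm26096). The smallest spreads among the Gm members were those of Gm25934, Gm24306 and Gm25121, between 0.25 and 0.26. The median SD over the tested features was 0.63. Over all libraries, 10 of the 20 distinct Gm rows had a more than 4-fold distance between the highest and lowest library, on value + 1. Within WT it was 0 of 20, where the widest was 3.94-fold for Gm25499. This lies so near 4-fold that the 0 depends on the 1 added to each value. Among the 5725 tested features with distinct values, 62.7% exceeded 4-fold over all libraries and 38.7% within WT, so both shares of the Gm rows were below those of the features. Of the other copies of the run, 27.6% of the 58 distinct Snord115 rows and 2.86% of the distinct Snord116 rows exceeded 4-fold over all libraries. Among the 77 other Snord-named rows the share was 23.4%. The Gm rows, picked with values known, exceeded these snoRNA shares. Without PS19-2, PS19-4, PS19-6 and PS19-8, 0 of the 20 Gm rows exceeded 4-fold on value + 1, with the same limit for Gm25499, against 55.7% of the 5725 features.

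The make-up of the Snord115 members differed between libraries. Gm25087 held 20.1% to 24.9% of the summed level of the 20 distinct Gm rows in WT, and 0.26% to 0.39% of it in PS19-2, PS19-4, PS19-6 and PS19-8. Gm26096 and Gm26499, which hold nearly the same reads, both enter this sum, so every share depends on that repeat. Gm22348 held 1.73% to 3.10% in WT and up to 22.9% in PS19. For Gm26466 the share was 0.65% to 1.04% in WT and reached 15.3% in PS19-8. The share of Gm24657 was 19.7% to 26.3% in WT and fell to 8.93% in PS19-6, with its own level within 1129 to 2209.

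**Figure D3:**
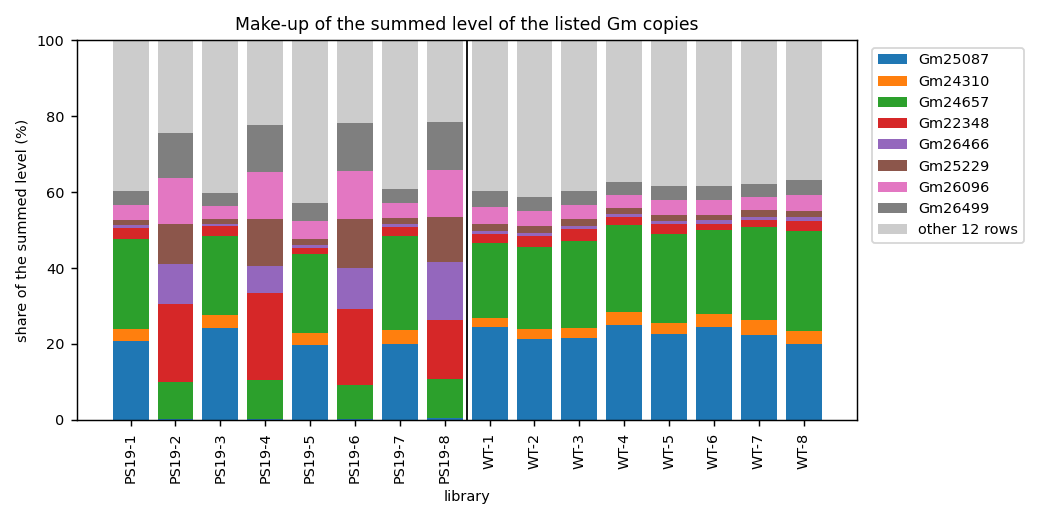
Share (%) of the summed normalized count of the 20 distinct Gm rows held by 8 named copies and by the other 12 rows, 1 bar per library. Gm25087 (blue) makes up 19.8% to 24.9% of the bar except in PS19-2, PS19-4, PS19-6 and PS19-8, where Gm22348, Gm26466, Gm25229, Gm26096 and Gm26499 take the larger part.

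The summed level of the Gm rows also set PS19-2, PS19-4, PS19-6 and PS19-8 apart, by a smaller step than Gm24310 or Gm26466. The 20 distinct Gm rows summed to 9343, 13276, 6739.9, 13072, 7000.2, 12642, 5707 and 20126 in PS19-1 to PS19-8, and to between 6412 and 9456 in WT. The means were 10988 ± 4786 in PS19 and 7740.4 ± 997 in WT (SD over 8 libraries each). The difference of the mean log2 sums was 0.40, and it was -0.12 without PS19-2, PS19-4, PS19-6 and PS19-8. Gm26096 and Gm26499 both enter this sum, while Gm25087 and Gm26467 enter it once. With all 21 rows summed, Gm26467 included, the difference was 0.24. Summed over all 137 Snord115 copies of the run, as 74 distinct rows, the level was 67487 to 134174 in PS19 and 79031 to 132085 in WT, and the log2 difference was -0.18. In this total, PS19-2, PS19-3, PS19-4 and PS19-6 lay below the lowest WT library and PS19-8 lay above the highest.

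The Snord116 members came out as nearly one signal. Of the 17 rows, 14 shared the most frequent of the 28 Snord116 sequences, which 30 of the 71 Snord116 copies carried. It is shown with no capitals, followed by the 3 members that differ from it, in which capitals mark the differing bases.
Most frequent Snord116 copy: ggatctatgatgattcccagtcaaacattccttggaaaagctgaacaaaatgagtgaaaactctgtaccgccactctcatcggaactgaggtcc
Snord116l9: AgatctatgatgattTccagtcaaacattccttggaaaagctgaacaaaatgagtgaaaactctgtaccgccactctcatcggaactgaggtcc
Snord116l14: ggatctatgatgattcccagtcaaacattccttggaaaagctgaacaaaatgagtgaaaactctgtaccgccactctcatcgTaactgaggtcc
Snord116l12: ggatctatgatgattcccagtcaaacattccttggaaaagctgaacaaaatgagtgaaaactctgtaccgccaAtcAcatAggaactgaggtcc

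Snord116l1 (chr7:59894620-59894713) stands for the shared signal. Its normalized counts were 3038, 3476, 2643, 3595, 1544, 3678, 3420.3 and 4429 in PS19-1 to PS19-8, and 3403, 3779.7, 3447, 2725, 3808, 3512, 2717 and 4622 in WT-1 to WT-8. PS19-5 was the lowest of the 16 libraries and WT-8 the highest, and the groups overlapped. Within PS19, replicates 2, 4, 6 and 8 were above replicates 1, 3, 5 and 7 in all 7 distinct Snord116 rows, as in 2.24% of the distinct tested features, by little in Snord116l1 (3476 to 4429 against 1544 to 3420.3) and by more in Snord116l12 (366 to 513 against 214 to 278). In each of these rows the 4 libraries overlapped the WT range. Counting both directions, these PS19 libraries were apart from the other PS19 libraries in 17 of the 29 distinct member rows, against 3.34% of the distinct tested features, and since they were singled out on such values this is a description. Snord116l9 (chr7:59897161-59897254, with G1A and C16T) had nearly the same values, 1537 to 4389.8 in PS19 and 2714 to 4661 in WT, and Snord116l11 had 1512 to 4396 and 2703 to 4605.

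Snord116l14 and Snord116l12, each with a sequence that 1 copy carried, were counted apart from the shared signal. Snord116l14 (chr7:59871864-59871957, with G83T) had 391 to 954 normalized counts in PS19, median 589, and 368 to 756 in WT, median 552. Snord116l12 (chr7:59904755-59904848, with C74A, T77A and C81A) had 214 to 513, median 322, and 209 to 425, median 301. Per base of length, the mean over 16 libraries was 35.8 normalized counts for Snord116l1, 6.0 for Snord116l14 and 3.41 for Snord116l12. The Snord116l1 row takes in the reads of a sequence that 30 copies carried, so these are not levels of single copies and their order says nothing of a copy's own level.

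By genotype, the log2 difference (PS19 minus WT) was -0.15 ± 0.21 (SE) for Snord116l1, -0.17 ± 0.20 for Snord116l9, 0.07 ± 0.22 for Snord116l14 and 0.07 ± 0.22 for Snord116l12. No Snord116 row passed the limma test, with an adjusted p of 0.9998 for each of them over all tested features. The 7 distinct rows summed to 17007 ± 4506 in PS19 and 18359 ± 3195 in WT (SD over 8 libraries each). The difference of the mean log2 sums was -0.15, within the spread between libraries. The rows other than Snord116l14 and Snord116l12 hold nearly the same reads, so this sum counts the shared signal repeatedly. Without PS19-2, PS19-4, PS19-6 and PS19-8, the difference was -0.44 for Snord116l1 and -0.33 for Snord116l12.

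Snord64 and Snord107 are single-copy members at the Snrpn end of the run. Snord64 (chr7:59978808-59978874, 67 bases) had the highest level per base of the 40 members, 206 normalized counts, against 27.4 for Snord107 (chr7:59980876-59980945, 70 bases). Their sequences are shown in full, since no other row has the same values.
Snord64: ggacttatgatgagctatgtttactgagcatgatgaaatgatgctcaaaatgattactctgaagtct
Snord107: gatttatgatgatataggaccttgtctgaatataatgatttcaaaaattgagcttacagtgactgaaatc

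Snord64 showed 17439, 12719, 14708, 12495, 11501, 12390.3, 9453 and 17846 normalized counts in PS19-1 to PS19-8, and 16783, 12578, 16922, 11857, 13959, 15059.9, 11645 and 13815 in WT-1 to WT-8. The groups overlapped, and the log2 difference was -0.07 ± 0.17 (SE), with a limma p of 0.691. Snord107 showed 2043, 1393, 1554, 1290.3, 1912, 1638, 1640.2 and 2272 in PS19, and 2563, 1907, 2284, 1862, 2076, 2223, 2028 and 1973 in WT. Its PS19 libraries tended to the lower part of the range, 5 of 8 lay below the lowest WT library, and the log2 difference was -0.32 ± 0.17 (SE). No other Snord-named member had a smaller limma p than this 0.0752, and with an adjusted p of 0.9998 in limma Snord107 did not pass the test. Its unadjusted limma p was under 0.05 with a filter at a mean of 20, with a replicate number term, and without PS19-8. In none of these fits did it pass at an adjusted p under 0.05. The SD over the 16 libraries was 0.26 for Snord64 and 0.27 for Snord107, so that only 1.03% and 1.43% of the tested features had an equal or smaller spread.

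**Figure D4:**
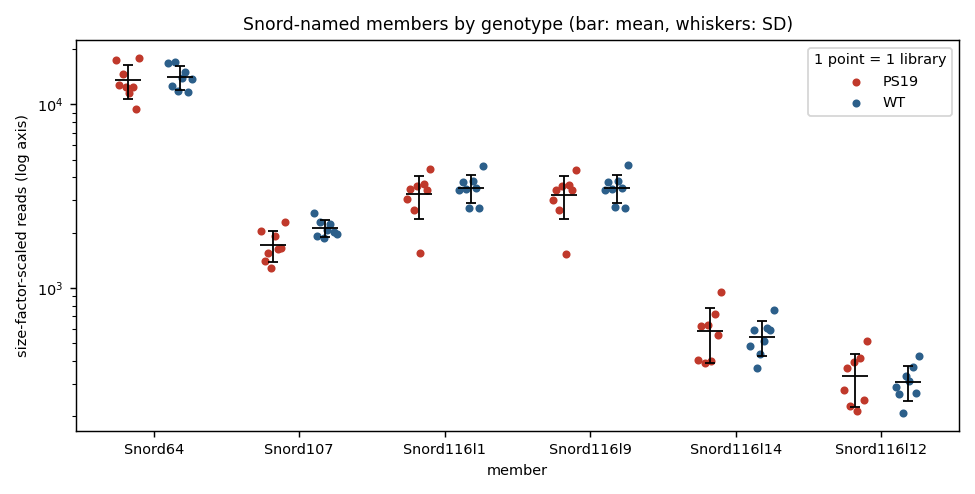
Normalized counts (size-factor-scaled reads, log axis) of 6 Snord-named members in 8 PS19 (red) and 8 WT (blue) libraries, with the mean as a bar and the SD as whiskers. The groups overlap for every member shown, and PS19-5 is the low red point of Snord116l1 and Snord116l9.

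Across all members, 0 of 40 passed an adjusted p of 0.05 in limma, and the same holds for 0% of the 6024 tested features. At an unadjusted p under 0.05 limma called 9 of the 40 members, against 4.0% of the tested features. All 9 were listed Gm symbols, 5 higher in PS19 (Gm22348, Gm25229, Gm26096, Gm26499 and Gm26466) and 4 lower (Gm25499, Gm24310, Gm25087 and Gm26467). Since the Gm symbols were picked on values of these libraries, these counts are a description and carry no weight as a test.

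DESeq2 on the recovered reads called 5 members, those higher in PS19, at an adjusted p under 0.05, against 0.249% of the tested features (15 of 6024). All 5 were listed Gm symbols, picked on values of these libraries, so this count is a description as well. The unadjusted DESeq2 count was 8 members against 4.70%, with Snord107 lower in PS19 among them. The edgeR test called 0 members at an adjusted p under 0.05, against 0% of the features, and 7 at an unadjusted p, against 4.40%. Neither DESeq2 nor edgeR called Gm24310 or Gm25087 at an unadjusted p under 0.05. The means in PS19 and WT were 120.3 and 235 normalized counts for Gm24310, and 785 and 1759 for Gm25087.

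The 4 PS19 libraries were singled out by their values, so that leaving them out had to bring these differences towards 0, and the values are a description. With them, the log2 difference was -3.05 for Gm24310, -2.78 for Gm25087, 2.20 for Gm26466, 1.88 for Gm22348, 1.70 for Gm25229 and 1.27 for Gm26096. Without them it was 0.01, -0.22, -0.25, -0.19, -0.29 and -0.07. For Gm22496, Gm24969 and Gm25499 it went from 0.45, 0.50 and -0.87 to -0.23, -0.45 and 0.08. A difference below 0 without them was seen in 24 of the 29 distinct member rows (82.8%), against 49.9% of the 5725 distinct tested features. Snord116 rows, Snord64 and Snord107 were among the 24, so this sign was not particular to the switching copies. Several of these rows hold nearly the same reads, so 24 is not a count of separate signals.

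A library code in the labels began with G for all 8 PS19 libraries and for WT-2 and WT-4. Within these libraries, limma called 0 of the 40 members at an unadjusted p under 0.05, against 2.01% of the tested features, with only 2 WT libraries in the fit. WT-2 and WT-4 had 207 and 217 normalized counts of Gm24310 and 55.2 and 48.3 of Gm26466. The other 6 WT libraries had the letters A and F, which no PS19 library had. With the letter as a term, 0 of the 40 members passed at an unadjusted p under 0.05, against 2.06% of the tested features. The log2 difference of Snord107 was then -0.16 ± 0.28 (SE). The log2 differences of the 9 members called without this term kept their sign, for instance -2.91 ± 1.59 (SE) for Gm24310 and 2.43 ± 1.30 for Gm26466, while the SE was 1.61 to 1.66 times as large.

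To see which rows were most like the switching copies, Pearson's r of log2(value + 1) was taken over the 16 libraries among the features with a mean of at least 5. These points share libraries, and copies can share reads, so r is given as a description. For Gm24310, the member with the highest r was Gm25087 (r = 0.99, with Gm26467), before Gm25499 (0.79), Gm25648 (0.66), Snord107 (0.54) and Gm24657 (0.46). For Gm26466, it was Gm26499 (0.99), with Gm26096, Gm25229 (0.99), Gm22348 (0.97) and Gm22496 (0.90) after it. Gm24310 and Gm26466 had an r of -0.96.

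Over the 8 WT libraries alone the likeness was not the same. Gm24310 and Gm25087 had an r of 0.09 there, and Gm24310 and Gm26466 one of 0.45. Gm26466 and Gm26096 stayed alike, with 0.83. For Gm26466 with Gm25229, Gm22348 and Gm22496, r within WT was lower, at 0.50, 0.47 and 0.59. With Gm25087 it was 0.63 there, against -0.94 over the 16 libraries.

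Rows outside the member list followed the same libraries, most of them in the same run. Of the 22 distinct features with an absolute r of at least 0.8 to Gm24310, 19 were snoRNA copies of the run, 8 of them members and 11 not, and the other features were mmu_circ_0014295, mmu_circ_0014292 and mmu-miR-935. The row mmu_circ_0014295 had almost the read counts of Gm24310 itself, with 3.25, 1.07, 2.85 and 3.66 normalized counts in PS19-2, PS19-4, PS19-6 and PS19-8 and an r of 0.9998. Next came the Snord115 copies Gm22510 and Gm26336 (r = 0.96), Gm25314 (0.94) and Gm23660 (0.91).

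Gm22510 dropped less far than Gm24310. It had 645, 630.2, 615 and 1133 in PS19-2, PS19-4, PS19-6 and PS19-8, and 2200.3 to 3582 in the other 12 libraries. For Gm25087 the 5 non-members most like it were mmu_circ_0014295 (0.99), Gm22510 (0.98), Gm26336 (0.98), Gm25314 (0.95) and the Snord116 copy Gm26097 (0.92), and for Gm26466 they were Gm25646 (0.95), mmu_circ_0014292 (0.92), Gm25088 (0.89), the Snord116 copy Gm24518 (0.84) and mmu_circ_0010996 (0.74). Gm25646 was 571, 598, 538 and 802 in the 4 switched libraries, and 172 to 316 in the other 12.

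Along the run, the wide spreads were all on the Snord115 side. Gm26096, Gm26499, Gm22348, Gm26466 and Gm25229, high in the 4 PS19 libraries, lay 31.6 to 71.9 kb from the first copy, and Gm22496 and Gm24969, also high there, lay 5.11 and 18.5 kb from it. Of the copies low in these libraries, Gm24310, Gm26467 and Gm25087 lay 176 to 240 kb from the first copy, and Gm25499 is the first copy itself. The non-members Gm25314 and Gm23660, with a positive r to Gm24310, lay at 29.7 and 45.7 kb. Of the 21 Gm members, 9 had an SD over 1, against 2 of the Snord115 copies that are not members, and against 0 of the 17 Snord116 members and 0 of 53 other tested Snord116 copies. The median SD was 0.64 for the Gm members, 0.38 for the other Snord115 copies, 0.37 for the Snord116 members and 0.35 for the other Snord116 copies. The Gm members were picked with these values known, so the first of these contrasts is a description of the list.

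**Figure D5:**
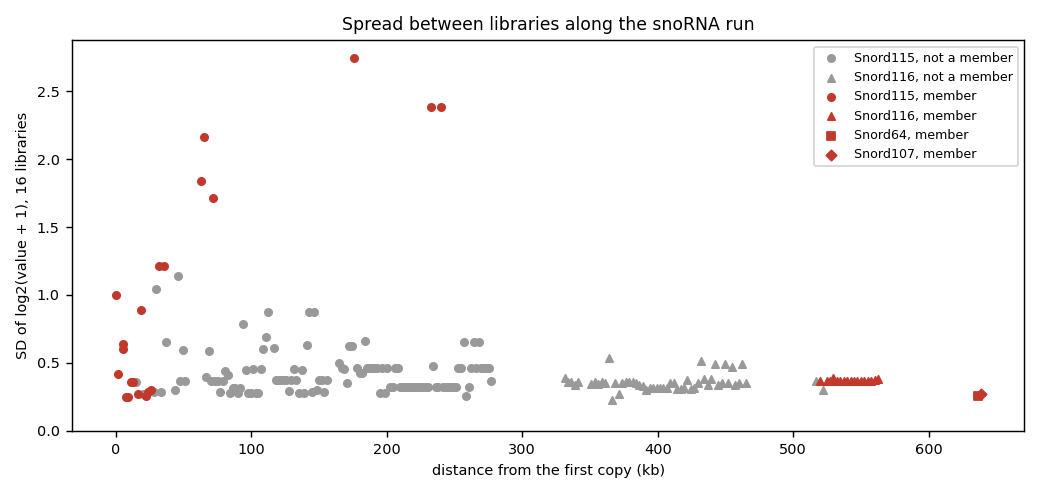
SD of log2(value + 1) over 16 libraries (vertical axis) by distance from the first copy of the run in kb (horizontal axis) for tested snoRNA copies, with members in red and other copies in grey. Gm24310, at 176 kb, is the highest point (2.75), and Snord116 copies, Snord64 and Snord107 all lie below 0.54.

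Other snoRNAs gave the background for the genotype comparison. The 4 rows named Snord113, Snord114 or AF357, from the imprinted tandem snoRNAs of another locus, had a median log2 difference of -0.14, and 0 of 4 passed limma at an adjusted or at an unadjusted p of 0.05. Of 77 other tested Snord-named rows 0 passed either, with a median of 0.02. The 40 members had a median of -0.15, with 14 Snord116 rows at nearly the same value, and all tested features had -0.02. Among the other Snord115 copies tested, which hold 58 distinct rows, 8 (6.90% of the copies) were lower and 0 higher in PS19 at an unadjusted p under 0.05, against 2.14% of all tested features lower, and their median was -0.12. These 8 copies held 6 distinct rows, and in 5 of the 8 copies PS19-2, PS19-4, PS19-6 and PS19-8 lay below the other 12 libraries. Their log2 differences were -1.28 to -0.58 with these libraries and -0.21 to -0.01 without them. Of the 53 other Snord116 copies, 4 (7.55%) were lower and 0 higher, with a median of -0.15. These 4 held 2 distinct rows, Gm26097 and the shared row of Gm22047, Gm25474 and Gm23619, and in both the same 4 PS19 libraries lay below the other 12. Gm22047 had 217 to 308 normalized counts in them, 418 to 575 in the other PS19 libraries and 379 to 641 in WT.

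The neuronal markers were present in all libraries. The neuronal miR-124-3p, miR-9-5p and miR-128-3p summed to 293975 to 1024774 normalized counts in PS19 and 340987 to 950974 in WT, with 326636 to 945601 in PS19-2, PS19-4, PS19-6 and PS19-8. Glial miR-219a-5p and miR-338-3p summed to 30.7 to 123 and 29.7 to 121, with miR-219a-5p at 0 in some libraries of each group. The 4 markers of microglia and blood summed to 8.54 to 48.7 and 4.75 to 33.6, with miR-142a-3p and miR-144-3p at 0 in some libraries of each group. The choroid plexus pair summed to 773 to 6598 and 543 to 4146, with 773 to 1556 in the switched libraries and miR-449a-5p at 0 in some libraries of each group. Muscle miR-1a-3p, miR-133a-3p and miR-206-3p summed to 2253 to 14631 and 2867 to 10689, and liver miR-122-5p was 138 to 654 and 132 to 387. The part of these markers in the results was not tested.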

How the data were processed

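Prefrontal cortex small RNA libraries of 8 PS19 mice and 8 WT mice were analysed, with genotype and replicate number taken from the sample labels. Per the study methods and the submitters' processing notes, the authors mapped reads to mm10 with STAR 2.5.3a within the COMPSRA pipeline, counted them per snoRNA, miRNA, tRNA, snRNA and circRNA, and normalized counts with DESeq2 1.42.1. The deposited values are a normalized signal, read counts that were divided by a library's size factor. For each library, 100% of the values lay within 0.1 of a whole multiple of the value of 1 read, so reads were recovered by division. In WT-4 and WT-6 a read was worth nearly 1. The table also holds the authors' fold changes and p-values, which were not used, and 0 columns of values per library were left out.

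The members and lists were chosen with earlier results of these data known. Values were transformed as log2(value + 1), which understates changes of low features. Features with a mean of at least 5 (6024) were tested by limma 3.58.1 (lmFit, eBayes with trend, R 4.3.3) with genotype as the only term, and two-sided p-values were corrected over all of them (Benjamini-Hochberg). No p-value is given for a single Gm symbol. The script was tested on simulated data. DESeq2 1.42.0 and edgeR 4.0.16 (quasi-likelihood) on recovered reads were alternatives, as were scaling to the library or snoRNA total, other filters (none beyond a value above 0 in 2 libraries, or a mean of 20), pseudocounts of 0.5 and 5, a replicate number term, the code letter, identical rows once, and each library left out. Using code letter G only, and leaving out PS19-2, PS19-4, PS19-6 and PS19-8, were added after the data were seen.

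Genes named are all Gm symbols, Snord64, Snord107, within the Snord116 rows those of highest mean and of largest and smallest SD, identical rows once, the Snord-named members of smallest p in each direction, and the 5 members and 5 non-members most like Gm24310, Gm25087 and Gm26466. Other rows were named after their values were seen. Positions and sequences are those of GENCODE vM21 (GRCm38), matched by gene symbol for all 40 members, and mm10 is the same build. Depth was 13.2 M to 23.1 M recovered reads. A read that matches several copies was counted under each, so copies of 1 sequence cannot be measured apart.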

Additional observations from a re-analysis of the deposited data

Results flagged for a closer look

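Some members had 1 library far from the other 7 of its genotype, by Dixon's 95% criterion for groups of 8. In 62 groups of values examined, chance alone flags about 1 in 20, and 4 values were found. Gm24966 reached 65.6 normalized counts in WT-2, with the next library at 35.1. Gm26230 was 765 in PS19-8, against 483 in the next library, and 307 in WT-4, below the next at 399.6. Gm26466 was 3078 in PS19-8, with the next library at 1401. In the same library Gm26096 and Gm25229 also had their highest values, and its snoRNA share of the signal, 23.5%, was the highest of the 16. The part of that share in these values was not tested.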

How the results depend on the processing

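The count of members called at an adjusted p under 0.05 was 0 in limma and stayed 0 under each alternative except DESeq2, with 5, and it was 0 with any 1 library left out. At an unadjusted p the count of 9 ranged from 8 to 10 with 1 library left out, and it was 0 with the code letter as a term and 0 within letter G, where 2.06% and 2.01% of all tested features passed. The difference of the summed Gm level ranged from 0.26 to 0.52, and that of the Snord116 sum from -0.22 to -0.01, with 1 library left out. Without PS19-2, PS19-4, PS19-6 and PS19-8, chosen after seeing the data, the Gm sum moved from 0.40 to -0.12, and the number of the 20 Gm rows over 4-fold from 10 to 0, while the share of all distinct tested features over 4-fold went from 62.7% to 55.7%. That number was 9 or 10 with any 1 library left out. Both scalings and both pseudocounts left the sums and that number where they were within the spread between libraries or a factor of 1.5.

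The sign of small differences was not stable. Snord64 turned from -0.07 to 0.12 with the code letter as a term or within letter G, and its range with 1 library left out was -0.13 to 0.00 (0.0019 without PS19-7). Snord116l14 ranged from -0.039 to 0.14 (-0.0048 without WT-3) and Snord116l12 from -0.031 to 0.15 (-0.0081 without WT-3). The cause was not tested.

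The replicate numbers occur in both genotypes. Deviations from the group means correlated by 0.04 to 0.46 between same-numbered libraries, over 0.1 in 6 of 8 pairs, and 4 of the 16 libraries correlated best with their own number, so the numbers were not taken as pairs. With the replicate block, 10 members passed at an unadjusted p under 0.05, against 6.96% of all tested features, and 0 at an adjusted one. The member gained was Snord107. Depth limits Gm24310 in the low libraries, with 1 to 4 reads, and Gm25499, with as few as 2.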
